A study of Mus musculus with 6 samples.

Results

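The dystrophin-associated glycoprotein complex was represented by 8 genes, Dmd, Utrn, Dag1, Sgca, Sgcb, Sgcd, Sntb1 and Dtna. Its members were the non-control probes whose gene name in the array files is 1 of these, which gave 16 probes in 18 spots, out of 55681 probes under 36163 gene names. Expression was measured with 1-colour Agilent mouse arrays in total RNA of cardiac muscle from male C57BL/6 mice. Of the 6 arrays, 3 held sham hearts and 3 held hearts after 28 days of tail-suspension, in which a mouse is hung by its tail so that the hindlimbs bear no load, a model of microgravity. The sham mice were kept in the same space on the same feed without being hung. The labels put the start of suspension at 10 weeks of age and give all 6 mice an age of 11 weeks, which do not add up for the suspended group. The labels name no mutation and no drug for these samples.

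The complex links the actin cytoskeleton of a muscle fibre, through dystrophin and the membrane protein dystroglycan, to laminin in the surrounding matrix. The sarcoglycans stabilise dystroglycan in the membrane, and syntrophins and dystrobrevins attach signalling proteins to dystrophin from the inside. In heart and skeletal muscle the complex is known for protecting the membrane during contraction, and inherited loss of its subunits causes muscular dystrophy and cardiomyopathy. Utrophin is the close relative of dystrophin that can take its place.

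Each probe is 60 bases long and is named here by the base at which it starts in the transcript that the array design lists for it. The probes shown are those that read different stretches of Dmd, its relative Utrn, the pair of Sgcd and the dim probe of Sntb1. They are written 5′ to 3′ as on the array, with coordinates on mm9, and no base is set apart by capitals.
Dmd probe at base 450, chrX:80596782-80596841, plus strand: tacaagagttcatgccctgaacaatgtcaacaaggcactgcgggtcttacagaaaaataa
Dmd probe at base 4942, chrX:81132417-81132476, plus strand: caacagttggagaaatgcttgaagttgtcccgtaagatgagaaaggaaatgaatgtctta
Dmd probe at base 10335, chrX:82389391-82389450, plus strand: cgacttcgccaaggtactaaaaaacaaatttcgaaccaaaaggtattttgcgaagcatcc
Utrn probe at base 7910, chr10:12221228-12221287, minus strand: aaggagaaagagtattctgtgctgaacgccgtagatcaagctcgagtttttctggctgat
Sgcd probe at base 467, chr11:46939058-46939117, minus strand: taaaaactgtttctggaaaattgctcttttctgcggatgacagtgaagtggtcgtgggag
Sgcd probe at base 653, chr11:46794345-46794404, minus strand: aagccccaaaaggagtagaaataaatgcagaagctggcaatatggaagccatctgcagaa
Sntb1 probe at base 1082, chr15:55623590-55623649, minus strand: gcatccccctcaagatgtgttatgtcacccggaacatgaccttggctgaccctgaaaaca
The Dmd probes at bases 450 and 4942 lie 535635 bases apart in the genome and belong to full-length dystrophin mRNA, the form of striated muscle. The probe at base 10335 lies a further 1256974 bases downstream, in the carboxy-terminal part that the short dystrophin isoforms also contain. The probes of Sgcd lie 144713 bases apart in the genome.

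Of the complex, 1 probe passed the test between tail-suspension and sham. Values are log2 levels, the log2 of the processed intensity relative to the 75th percentile of its array, so that a probe at level 0 is as bright as that percentile. Of the 16 probes, 14 were well above background on all 6 arrays and were tested, and these covered all 8 genes. With a threshold of 0.05 on limma's p, adjusted by Benjamini-Hochberg over 28030 tested probes, 1 of the 14 was higher, the Sgca probe at base 1344, and 0 were lower. Over all tested probes, 10.6% were higher and 9.60% lower, or 20.2% in either direction. At an unadjusted p under 0.05, limma called 2 of the 14, both higher, against 38.0% of all tested probes. By the methods' t-test with the same adjustment, 1 was higher and 0 were lower, where 2659 of the 28030 tested probes were called in either direction. The tail-suspension and sham arrays did not overlap at 2 of the 14 probes, Sgca at base 1344 and Sgcd at base 653, against 43.9% of all tested probes. Read from the brightest tested probe of each gene, 0 of 8 genes passed by limma, where 10.3% of 20672 gene names were higher and 9.82% lower. At 0 of 8 the groups did not overlap, against 44.6% of all gene names. Also 0 of 8 passed the methods' t-test and 0 had an unadjusted limma p under 0.05. For these, the values over all tested probes are those given above. Fitted log2 fold changes were positive for 10 of the 14 probes and negative for 4, with a median of 0.12, against a median of -0.0071 over all tested probes. In RNA of a whole tissue, a different number of cells of a type and a different amount of RNA per cell cannot be told apart.

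**Figure D1:**
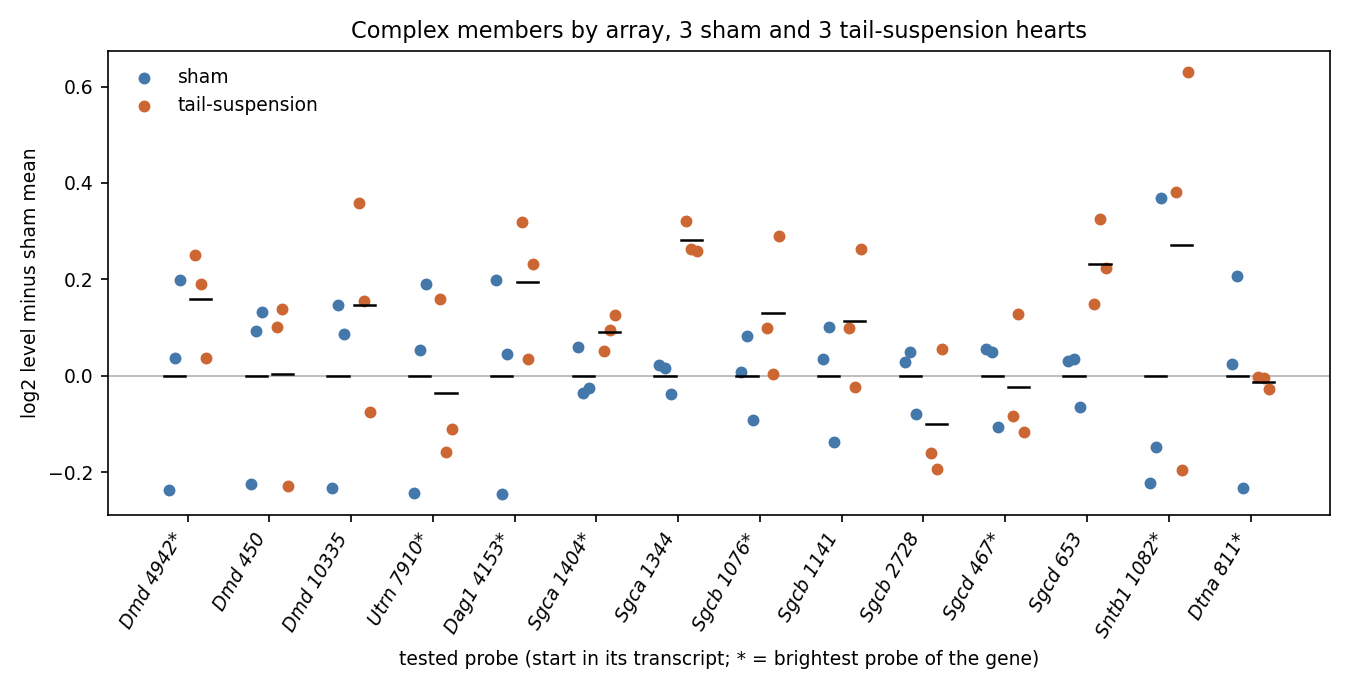
Log2 level of each of the 14 tested member probes on each array minus the mean of the 3 sham arrays (vertical axis, log2), by probe (horizontal axis, start in the transcript). Points are arrays, sham in blue and tail-suspension in orange, and black lines are group means. The groups overlap at all probes except Sgca at base 1344 and Sgcd at base 653, where all tail-suspension points lie above all sham points.

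The intervals give how large a change these arrays leave room for. For each of the 14 tested probes, the 95% interval of the log2 fold change lay inside a 2-fold change in either direction, and it included 0 for 12 of them. These intervals come from limma and are not widened for the number of probes. The widest was that of Sntb1, from -0.32 to 0.87, and the narrowest was that of Sgca at base 1344, from 0.093 to 0.47.

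**Figure D2:**
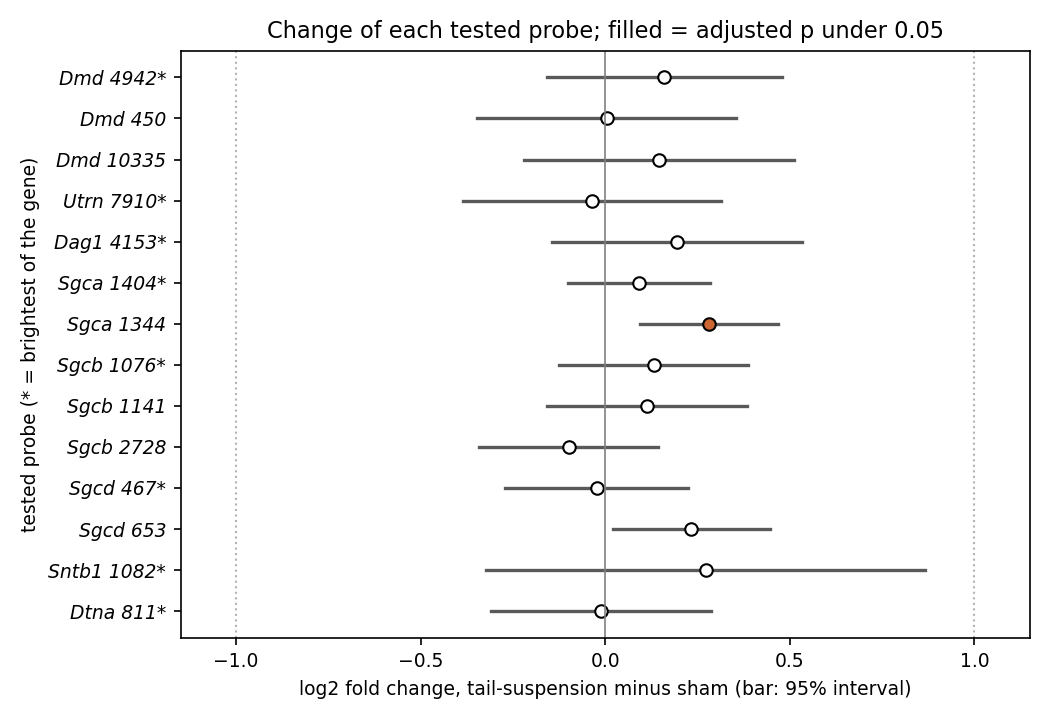
Log2 fold change of each tested member probe, tail-suspension minus sham (horizontal axis), with its 95% interval from limma as a bar; dotted lines mark 2-fold changes. Sgca at base 1344, the filled point at 0.28, is the 1 probe past an adjusted p of 0.05, and no interval reaches a dotted line.

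Dystrophin, the large cytoplasmic rod that ties actin to dystroglycan, is encoded by Dmd. Its brightest probe, at base 4942, had levels of 1.01, 1.28 and 1.44 in sham and 1.50, 1.44 and 1.28 in tail-suspension. The probe at base 450, near the start of the full-length message, had levels of 0.30, 0.62 and 0.66 in sham and 0.63, 0.67 and 0.30 in tail-suspension. The probe at base 10335 had levels of -1.86, -1.48 and -1.54 in sham and -1.27, -1.47 and -1.70 in tail-suspension. The groups overlapped at each of the 3 probes, and sham replicate 1 was the lowest sham array at each. The log2 fold changes were 0.16 (standard error, SE, 0.13, 95% interval -0.16 to 0.48, limma adjusted p = 0.419) at base 4942, 0.0037 (SE 0.15, 95% interval -0.35 to 0.35, limma adjusted p = 0.987) at base 450 and 0.15 (SE 0.15, 95% interval -0.22 to 0.51, limma adjusted p = 0.518) at base 10335. At base 4942 the change ranged from 0.041 without sham replicate 1 to 0.26 without sham replicate 3. A further Dmd probe, at base 14850 of another listed transcript, was not well above background on any array, with levels between -6.85 and -6.48, and was not tested.

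Utrophin, the relative of dystrophin encoded by Utrn, was read by 1 probe. Its levels were 0.35, 0.64 and 0.78 in sham and 0.75, 0.43 and 0.48 in tail-suspension. All 3 tail-suspension arrays lay within the range of the sham arrays, and sham replicate 1 was again the lowest. The log2 fold change was -0.036 (SE 0.15, 95% interval -0.38 to 0.31, limma adjusted p = 0.877), and its sign turned with array weights (0.016), with the slide row as a block (0.16) and without 1 array (up to 0.059). As Utrn and Dmd tended to be low on the same sham array, the change of Utrn was also taken relative to that of Dmd, within each array. The difference between the Utrn level and the level of the brightest Dmd probe was -0.66, -0.64 and -0.66 in sham and -0.75, -1.003 and -0.80 in tail-suspension. The size of this difference depends on the probes and says nothing of the amounts of the transcripts, so only its change is read. The 3 values after tail-suspension were all below the 3 sham values, and the difference moved by -0.20 (exact permutation test over arrays, two-sided p = 0.1, the smallest that 3 arrays against 3 can give). This separation holds for the Dmd probe at base 4942. Taken against the Dmd probe at base 450 or at base 10335, by the levels given above, the groups overlapped.

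Dystroglycan, the receptor whose sugar chains bind laminin, is encoded by Dag1 and was read by 1 probe, chr9:108108491-108108550 on the minus strand. Its levels were 4.21, 3.77 and 4.06 in sham and 4.33, 4.05 and 4.24 in tail-suspension. Sham replicate 2 was the lowest array, and the groups overlapped. The log2 fold change of 0.20 (SE 0.14, 95% interval -0.14 to 0.53) did not pass (limma adjusted p = 0.354), and it ranged from 0.072 without sham replicate 2 to 0.29 without sham replicate 1.

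The 1 call of the complex was in a sarcoglycan. Alpha-sarcoglycan, the subunit confined to striated muscle, is encoded by Sgca and was read by 2 probes on the minus strand of chromosome 11, 422 bases apart. The probe at base 1344, chr11:94824546-94824605, had levels of 5.04, 5.04 and 4.98 in sham and 5.34, 5.28 and 5.28 in tail-suspension. The groups did not overlap, and the spread within each group was small, with an SD of 0.033 in sham and 0.035 in tail-suspension (n = 3 each). It rose by 0.28 on the log2 scale, or 21.5% (SE 0.079, 95% interval 0.093 to 0.47, limma adjusted p = 0.0493). The call was lost without any 1 of the 6 arrays (adjusted p between 0.0684 and 0.135 by limma), without the filter on dim probes (0.154) and with slide row as a block (0.215), while the log2 fold change stayed between 0.24 and 0.32 in all 18 alternatives. The brighter Sgca probe, at base 1404 of another transcript model, chr11:94824124-94824183, had levels of 6.49, 6.40 and 6.41 in sham and 6.49, 6.53 and 6.56 in tail-suspension. The groups met at 6.49, and the log2 fold change of 0.091 (SE 0.081, 95% interval -0.10 to 0.28) did not pass (limma adjusted p = 0.446).

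Beta-sarcoglycan, encoded by Sgcb, was read by 3 probes on the minus strand of chromosome 5. The brightest, at base 1076, chr5:74026579-74026638, had levels of 3.99, 4.06 and 3.89 in sham and 4.08, 3.98 and 4.27 in tail-suspension. Its neighbour at base 1141, 65 bases on, had levels of 3.13, 3.20 and 2.96 in sham and 3.20, 3.08 and 3.36 in tail-suspension. The order of the 6 arrays was nearly the same at both, and the log2 fold changes were 0.13 (SE 0.11, 95% interval -0.13 to 0.39, limma adjusted p = 0.409) and 0.11 (SE 0.11, 95% interval -0.16 to 0.38, limma adjusted p = 0.498). The probe at base 2728, 1652 bases downstream of the brightest at chr5:74024927-74024986, had levels of 4.01, 4.04 and 3.91 in sham and 3.83, 3.79 and 4.04 in tail-suspension. At this position tail-suspension replicates 1 and 2 lay below all sham arrays and replicate 3 above them, a log2 fold change of -0.099 (SE 0.10, 95% interval -0.34 to 0.14, limma adjusted p = 0.509).

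Delta-sarcoglycan, which forms the core of the sarcoglycan group with beta-sarcoglycan, is encoded by Sgcd. Its brighter probe, at base 467, had levels of 0.91, 0.90 and 0.75 in sham and 0.77, 0.98 and 0.74 in tail-suspension. The probe at base 653, further downstream, had levels of -0.18, -0.18 and -0.28 in sham and -0.064, 0.11 and 0.011 in tail-suspension. The groups overlapped at the first and were apart at the second. The log2 fold changes were -0.024 (SE 0.10, 95% interval -0.27 to 0.23, limma adjusted p = 0.887) and 0.23 (SE 0.089, 95% interval 0.020 to 0.44, unadjusted p = 0.0362 and limma adjusted p = 0.107).

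As some genes had several tested probes, the difference between each further probe and the brightest probe of its gene was compared between groups within arrays, over 7358 such pairs. Of the 6 pairs of member genes, 0 passed an adjusted p of 0.05 by limma, against 3.28% of all pairs. At an unadjusted p under 0.05 there were 3 member pairs, against 20.7% of all pairs, and the groups did not overlap at the same 3, against 27.1% of all pairs. For Sgcb, the probe at base 2728 minus that at base 1076 was 0.024, -0.029 and 0.017 in sham and -0.25, -0.19 and -0.23 in tail-suspension. This difference moved by -0.23 (SE 0.064, 95% interval -0.39 to -0.074, limma adjusted p = 0.114). For Sgcd, the probe at base 653 minus that at base 467 was -1.09, -1.08 and -1.03 in sham and -0.83, -0.87 and -0.73 in tail-suspension, and it moved by 0.26 (SE 0.072, 95% interval 0.080 to 0.43, limma adjusted p = 0.117). For Sgca, the probe at base 1344 minus that at base 1404 was -1.45, -1.36 and -1.43 in sham and -1.14, -1.25 and -1.28 in tail-suspension. All tail-suspension arrays lay above all sham arrays, and the difference moved by 0.19 (SE 0.073, 95% interval 0.012 to 0.37, limma adjusted p = 0.217). The neighbouring Sgcb probe at base 1141 moved by -0.018 (95% interval -0.17 to 0.14, limma adjusted p = 0.907) relative to that at base 1076. The Dmd probes at bases 450 and 10335 moved by -0.16 (95% interval -0.36 to 0.049, limma adjusted p = 0.357) and -0.013 (95% interval -0.25 to 0.22, limma adjusted p = 0.954) relative to that at base 4942.

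**Figure D3:**
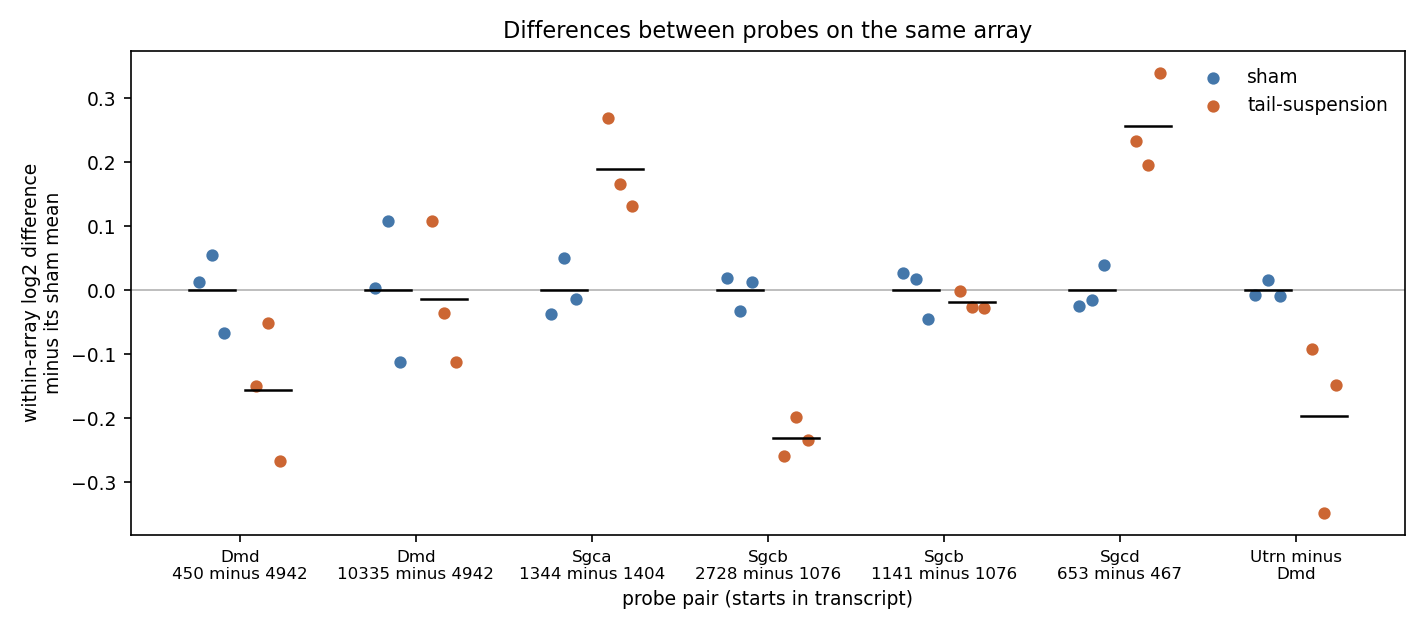
Within-array log2 difference between the named probes, minus the mean of that difference over the 3 sham arrays (vertical axis), for the 6 probe pairs of member genes and for Utrn minus Dmd (horizontal axis). Points are arrays, sham in blue and tail-suspension in orange, and black lines are group means. The groups are apart for Sgca, for Sgcb at base 2728, for Sgcd and for Utrn minus Dmd, and none of the 6 pairs passed an adjusted p of 0.05. Utrn minus Dmd is drawn from the brightest Dmd probe, and with the other tested Dmd probes the groups overlap.

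The cytoplasmic members showed no call. Beta-1-syntrophin, an adaptor for signalling proteins and channels, is encoded by Sntb1, and its probe at base 1082 was the dimmest of those tested. Its levels were -4.13, -4.05 and -3.54 in sham and -3.53, -4.10 and -3.28 in tail-suspension, where the lowest level well above background on any array lay between -4.59 and -4.27. The groups overlapped, the log2 fold change was 0.27 (SE 0.25, 95% interval -0.32 to 0.87, limma adjusted p = 0.460), and it turned to -0.086 with the normexp background correction. The second Sntb1 probe, at base 2081, with levels of -4.45, -4.59 and -4.95 in sham and -4.30, -4.41 and -5.02 in tail-suspension, reached the background limit on 1 array, a suspended heart, and was not tested. Alpha-dystrobrevin, which binds dystrophin and the syntrophins, is encoded by Dtna on chromosome 18. Its levels were 0.45, 0.64 and 0.20 in sham and 0.43, 0.43 and 0.40 in tail-suspension. The tail-suspension arrays lay inside the range of the sham arrays, and the log2 fold change was -0.012 (SE 0.12, 95% interval -0.31 to 0.29, limma adjusted p = 0.954).

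Around these 8 genes, 5 lists of 58 genes were read from the brightest tested probe of each gene: the other subunits of the complex, the enzymes that glycosylate dystroglycan, its matrix ligands, cytoplasmic partners, and genes of membrane repair and injury. Of the 49 genes tested, 4 were higher and 11 lower past the adjusted threshold, where 10.3% of all gene names were higher and 9.82% lower, and each of the 15 kept its direction in all 18 alternatives. With slide row as a block, 0 of the 15 passed by limma, and without 1 array between 3 and 10 of them did, with the lowest count without sham replicate 2. By limma, 3 of the 15 passed without the filter on dim probes and 8 with the replicate block. By the methods' t-test, 6 of the 15 passed. Des and Dysf passed in 17 of the 18 alternatives and Agrn in 5.

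Among the other subunits, 6 of 9 genes were tested, with a median log2 fold change of 0.16 against -0.0098 over all gene names. Of the 6, 1 rose and 1 fell, against 10.3% and 9.82% of all gene names. Sspn, which encodes sarcospan, the small membrane protein bound to the sarcoglycans, had levels of 6.12, 6.07 and 5.85 in sham and 5.50, 5.24 and 5.34 in tail-suspension. It fell by 36.6%, or -0.66 on the log2 scale (SE 0.11, limma adjusted p = 0.0141). The groups did not overlap. Sgcz, Sntg1 and Sntg2 were not well above background on all arrays of a group.

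Of 16 glycosylation genes tested, 0 rose and 4 fell, against 10.3% and 9.82% of all gene names, with a median of -0.13. Among those that fell, B3galnt2, which extends the core of the sugar chain, had a log2 fold change of -0.47 (SE 0.11, limma adjusted p = 0.0331). Log2 fold changes of others were those of Gmppb (-0.40, SE 0.10, limma adjusted p = 0.0407), which makes the donor of mannose, and Dolk (-0.34, SE 0.088, limma adjusted p = 0.0414), which makes the lipid carrier of sugars. B3galnt2 passed in 9 of the 18 alternatives, and Gmppb and Dolk in 8 each. Of 8 matrix ligands tested, 1 fell, against 9.82% of all gene names, with a median of -0.26. This was Agrn, the proteoglycan agrin, whose log2 fold change was -0.51 (SE 0.14, limma adjusted p = 0.0492), and 1 of its 2 tested probes passed.

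Of 9 cytoplasmic partners tested, 2 rose and 3 fell, against 10.3% and 9.82% of all gene names, with a median of -0.18. Des, which encodes the intermediate filament desmin, had levels of 5.36, 5.39 and 5.02 in sham and 6.03, 6.10 and 6.27 in tail-suspension, a rise of 0.87 on the log2 scale, or 83.1% (SE 0.13, limma adjusted p = 0.00893). Ank3, which encodes ankyrin-G, rose by 0.43 (SE 0.083, limma adjusted p = 0.0185), with 1 of 3 tested probes past the threshold. Ank2, which encodes ankyrin-B, changed by -0.39 (SE 0.094, limma adjusted p = 0.0328). Synm, which encodes synemin, a filament protein that binds desmin and the complex, changed by -0.75 (SE 0.16, limma adjusted p = 0.0238), with 3 of 5 probes lower. Actg1, cytoplasmic gamma-actin, changed by -0.61 (SE 0.11, limma adjusted p = 0.0164) with 5 of 5 probes lower, although near-identical actin transcripts may share them. Desmin is also made by smooth muscle, and of 8 smooth muscle and pericyte markers, Des among them, Des alone was called. The summed level of the other 7 (linear scale, in units of the array's 75th percentile) was 60.8, 75.1 and 82.9 in sham and 102, 73.0 and 80.9 in tail-suspension, so that the groups overlapped without Des. The part of such cells in the rise of Des was not tested.

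Of 10 genes of membrane repair and injury, 1 rose and 2 fell, against 10.3% and 9.82% of all gene names, with a median of 0.013. Dysf, which encodes dysferlin, a protein that reseals the membrane, had levels of 4.69, 4.79 and 4.61 in sham and 3.89, 3.70 and 3.62 in tail-suspension. It fell by 48.7%, or -0.96 on the log2 scale (SE 0.11, limma adjusted p = 0.00369). Capn3, the muscle protease calpain-3, changed by -0.94 (SE 0.20, limma adjusted p = 0.0228), and Ahnak, a large protein bound to dysferlin and the membrane, by 0.42 (SE 0.11, limma adjusted p = 0.0395).

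**Figure D4:**
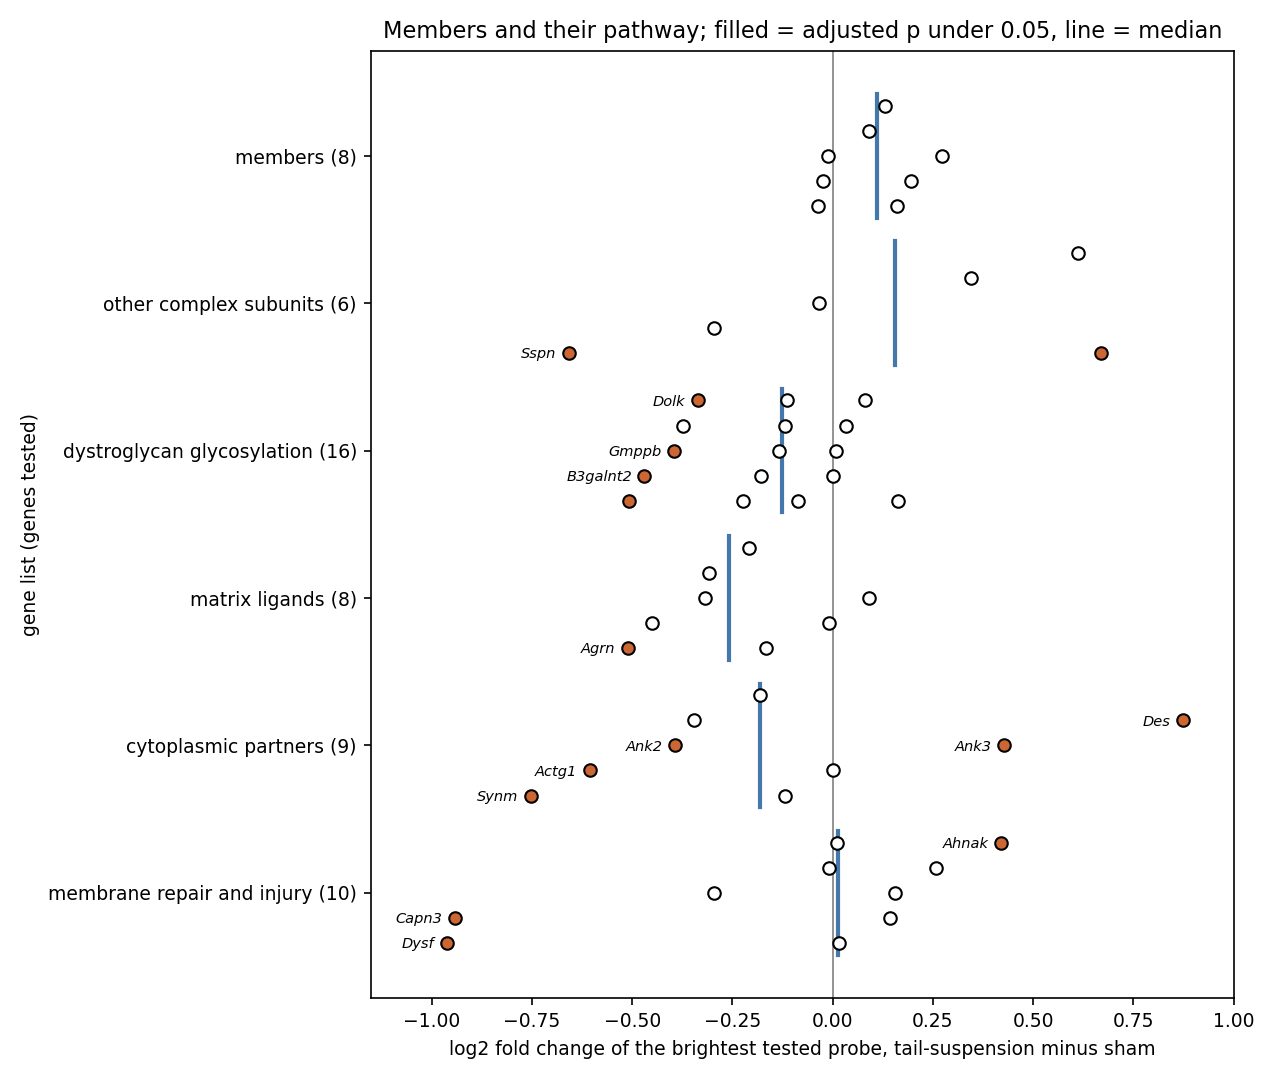
Log2 fold change of the brightest tested probe of each gene, tail-suspension minus sham (horizontal axis), for the 8 members and the 5 lists around them (vertical axis, genes tested in brackets; points of a list are spread vertically so that they do not overlap). Filled points passed an adjusted p of 0.05, not all of them named, and blue lines are medians; no member is filled, and the members lie between -0.036 and 0.27.

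By the smallest root mean square difference of levels over the 6 arrays, each gene taken relative to its own mean, the 2 of 49 listed genes most like Dmd were Sgce (0.13), which encodes epsilon-sarcoglycan, and Pomt2 (0.14), an enzyme that starts the sugar chain of dystroglycan. Those most like Dag1 were Ahnak (0.13) and Trim72 (0.13), which encodes a membrane repair protein. A gene that varies little over the arrays can also have a small difference by this measure. Pomt2, for example, had an SD of 0.014 in sham and 0.079 in tail-suspension. The ranking therefore does not show a shared course with Dmd or Dag1, and a small difference did not mean an equal change. The log2 fold change was -0.034 for Sgce and 0.081 for Pomt2, against 0.16 for Dmd. It was 0.42 for Ahnak and 0.16 for Trim72, against 0.20 for Dag1.

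The markers of cardiac muscle were present. All 9 tested cardiomyocyte markers of 10 were well above background on all 6 arrays, with 0 higher and 1 lower and a summed level of 4449 to 4755 in sham and 4228 to 4735 in tail-suspension. Of the skeletal muscle markers, 3 of 9 were tested with 0 called, and the fast myosin genes Myh1, Myh2 and Myh4 were not well above background on any array. Higher and lower calls were 0 and 1 of 8 fibroblast, 1 and 3 of 7 endothelial, 1 and 0 of 6 macrophage, 3 and 0 of 4 neutrophil, 1 and 0 of 6 Schwann and nerve, 0 and 0 of 2 adipocyte and 0 and 1 of 5 red cell markers tested. Over all gene names, 10.3% were higher and 9.82% lower. The called macrophage marker, Cd163, and the called nerve marker, Prph, were well above background on 0 sham and 3 tail-suspension arrays. They entered the test only through the suspended hearts, as did the neutrophil marker Retnlg. The summed level of the red cell markers was 431 to 697 in sham and 109 to 346 in tail-suspension. The called neutrophil markers were S100a8, S100a9 and Retnlg. S100a8 had levels of -2.52, -2.87 and -3.37 in sham and 3.32, 0.55 and 1.76 in tail-suspension, S100a9 had -0.48, -0.70 and -1.14 against 5.23, 2.61 and 3.68, and Retnlg was below the background limit in all 3 sham hearts. Csf3r, which was not called (limma adjusted p = 0.0917), made up most of the summed level of these markers, 144 to 172 in sham and 207 to 236 in tail-suspension. The part of these cells in the values above was not tested. On each array 50.9% to 53.4% of probes were well above background, and the number of arrays limits the precision. All arrays lay on 1 slide, with the sham arrays and 1 of the suspended hearts, replicate 1, in its first row. Within that row, replicate 1 lay above the sham mean by 0.32 at Sgca base 1344, by 0.15 at Sgcd base 653 and by 0.25 at Dmd base 4942. At uncalled probes replicate 1 was above by a like amount or more: 0.38 at Sntb1 base 1082, 0.36 at Dmd base 10335 and 0.32 at Dag1. It was only 0.052 above at the brighter Sgca probe. Values below the sham mean were those of Sgcb base 2728 (-0.16), Sgcd base 467 (-0.084) and Dtna (-0.0033).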

How the data were processed

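Total RNA was labelled with Cy3 and hybridised to Agilent arrays, which the authors scanned and extracted with Agilent Feature Extraction 10.7.1.1, per the labels. The deposited scanner files give an intensity for each spot. A further deposited table holds log2 values for these arrays. Each of its columns correlated between 0.9991 and 0.9993 with the log2 processed intensity. Once sorted, no column exceeded that of sham replicate 1 by more than 0.000856, and the medians were the same, at 4.32126. Quantile normalization by the authors would leave the columns like this. The authors' method is not given in the sources used here.

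Levels were computed in R 4.3.3 as the log2 processed intensity minus that of the array's 75th percentile, an intensity of 300.0 to 375.0. Control spots and the 146 to 212 outlier-flagged spots per array were left out, spots of 1 probe were averaged, and a probe was well above background when at least 50% of its spots were so flagged. Probes well above background on all arrays of at least 1 group (28030) were fitted with limma 3.58.1 (lmFit and eBayes, 6 arrays, no covariates) and adjusted by Benjamini-Hochberg, with a threshold of 0.05. Where a gene had several tested probes, that of highest mean level stood for it. Pairs of probes were fitted in the same way, and Utrn minus Dmd was tested by exact permutation over arrays. Named are all members, the genes of the 5 lists past the threshold (some are counted but not reported by name here), and the 2 listed genes most like Dmd and Dag1. The members and lists were chosen with earlier results of these data known. The steps were tested on simulated data. Symbols are those of the array design, and coordinates are those of the files. Alternatives were quantile normalization, normexp (offset 50), the percentile of detected probes alone, the authors' log2 values, other filters, outlier spots kept, a variance trend, array weights, the methods' t-test, replicate and slide-row blocks, other probe rules and each array left out.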

Additional observations from a re-analysis of the deposited data

How the results depend on the processing

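The change of Dmd, Dag1, Sgca and of the 15 listed genes past the threshold kept its direction in every alternative that was run for it, and no member probe passed as lower in any. The size for the brightest Sgca probe depended on the normalization. Its change was 0.0020 with the authors' log2 values, 0.019 with quantile normalization and 0.16 with normexp, against 0.091. The number of member probes called higher was 0 without the filter on dim probes, with the replicate block, with the slide row as a block and with each array left out (0 to 0). The number of all probes called was 1843 without the filter, 2659 by the methods' t-test, 3157 with the replicate block, 504 with the row block and 1769 (without sham replicate 2) to 5580 with each array left out, against 5675. The number of probe pairs called was 500 with normexp, 12 with the replicate block, 2 with the row block and 1 (without tail-suspension replicate 3) to 233 with each array left out, against 241. The signs that turned belong to changes that were not called. They were Sntb1 with normexp (-0.086), Dtna with the percentile over detected probes (0.0052) and with arrays left out (-0.13 to 0.092), Utrn with array weights (0.016), with the row block (0.16) and with arrays left out (-0.16 to 0.059), and Sgcd with arrays left out (-0.10 to 0.022) and as the mean of its probes (0.10). The others were Sgcb by the probe with the highest sham mean (-0.099), Dmd at base 450 with array weights (-0.023) and with arrays left out (-0.11 to 0.12), and the Dmd pair at base 10335 with the row block (0.11) and with arrays left out (-0.074 to 0.041). The causes were not tested.

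The replicate numbers share only a number: deviations of same-numbered arrays from their group means correlated at -0.020, -0.018 and 0.050. With the replicate block, 3157 probes and 12 pairs passed, and Sgca at base 1344 did not (limma adjusted p = 0.112). The slide could not be a block, as there was 1. The row block sets 1 tail-suspension array against 3 sham arrays. Fewer arrays are fitted with 1 left out, and more probes are tested without the filter. A dim probe such as that of Sntb1 gives only a wide interval.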

Other observations

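Beyond the genes past the threshold, 12 genes of the 5 lists had groups that did not overlap and did not pass the adjusted threshold. Over all gene names the groups did not overlap for 44.6%, whether called or not. The groups of the 15 called genes did not overlap either. That share therefore compares with the 15 and the 12 together, out of 49 tested, and not with the 12 alone. The following were picked from them after their values were seen. Dtnb, which encodes beta-dystrobrevin, had a log2 fold change of 0.61 (SE 0.18, limma adjusted p = 0.0531), with 2 of 3 sham arrays well above background. Dtnb thus entered the test only through the suspended hearts, where it was higher. The laminin chains Lama2 and Lamb1 had log2 fold changes of -0.32 (SE 0.10, limma adjusted p = 0.0671) and -0.31 (SE 0.091, limma adjusted p = 0.0563). Hspg2, which encodes the matrix proteoglycan perlecan, had one of -0.45 (SE 0.14, limma adjusted p = 0.0658), while 1 of its 2 tested probes was called lower, and Pomgnt1, an enzyme of the dystroglycan sugar chain, one of -0.37 (SE 0.11, limma adjusted p = 0.0609).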
